A study of Mus musculus with 2 samples.

Results

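The cytosolic ribosomal protein genes encode the proteins of the small (Rps) and the large (Rpl) subunit of the ribosome that translates nuclear mRNAs. Members were the gene symbols made of Rpl or Rps, a number and at most 1 of the letters a, x, y or l, together with Rplp0, Rplp1, Rplp2 and Rpsa. Pseudogene symbols with -ps and the Rps6k kinases were left out. The rule matched 79 of 19294 gene symbols, 32 of the small and 47 of the large subunit, and each of the 79 had at least 1 UMI.

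The series asked which cells make up the Tcf4 Lin- population of the colon crypt, and Drop-seq was run on sorted cells of isolated crypts. In Drop-seq a bead captures mRNAs of a single cell in a droplet, and each captured 3′ end is counted once through its unique molecular identifier (UMI). The mice were Tcf4 GfpCre/+ RosamTmG/+ on C57BL/6, were between 4 and 10 months old and had no pretreatment, and the labels describe 2 pools of cells named Tcf4 Lin- and Tcf4 DP, of samples 1 to 3 and of samples 4 to 6. The reporter shows red membranes until Cre switches them to green, and Tcf4 Lin- cells are those in which it never switched. Cre is knocked in at Tcf4, so that all animals were heterozygous for Tcf4. Each pool mixes samples, human cells were mixed in, there was a single condition, and the labels do not say what DP stands for. The paper describes Drop-seq of sorted Tcf4 Lin- cells and of sorted cells with both red and green membranes, named MIX. It takes MIX cells to have switched recently. No label ties a barcode to either sort, so the cells used here may include both.

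The matrix held 1117 barcodes and 1023641 UMIs, of which members took 153565, or 15.0%. The authors' cluster lists place 516 barcodes in 4 clusters, which are 93 epithelial Pigr+ cells, 190 natural and 186 induced intraepithelial lymphocytes (nIELs and iIELs) and 47 B cells. A separate list divides 106 barcodes into 32 stem cells, 32 secretory precursors and 42 absorptive precursors. Some barcodes of the same set differ by 1 base. There were 4 such pairs in stem cells, 10 in secretory and 7 in absorptive precursors. The epithelial cluster had 22, nIELs 1, iIELs 9 and B cells 3. Whether a pair comes from a single cell was not tested, and each barcode counts as a cell below unless said otherwise. The assigned barcodes had a median depth of 1126 UMIs, the lowest 504 and the highest 23205. Barcodes end in X1 (1042) or X2 (75), no label ties either suffix to a pool, and 0 barcode sequences occurred with both. All cells were therefore taken as 1 sample without replicates, so that no difference was tested. Intervals are exact 95% intervals and cover counting error only. The authors made the clusters from the same genes, and a cluster against the rest is no test.

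The lists overlap in a way that bears on every comparison. In them, 14 cells are both in an epithelial subcluster and an IEL cluster, 11 as iIELs and 3 as nIELs, and 3 of the 14 held more than 20000 UMIs. Of the 14, 6 were stem cells, and 1 of these held 33.6% of the stem cell UMIs and 8.17% of the iIEL UMIs.

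Markers followed the names of the clusters, with the overlap visible in iIELs. They are not independent of the names, since the authors clustered the cells on the same genes. For their epithelial trajectory, the authors also kept only cells that had Pigr and lacked T cell markers. Pigr gave 1236 of the 1530 epithelial marker UMIs in stem cells. The 7 epithelial markers, led by Pigr in each epithelial group, summed to 21003 UMIs per 1000000 (CPM) in the epithelial cluster, and by subcluster to 23600 CPM in absorptive precursors, 16702 CPM in secretory precursors and 22159 CPM in stem cells. They were at 330 CPM in nIELs, where Vil1 was at 0, and at 78.2 CPM in B cells, where Krt8, Krt18, Krt19, Pigr and Vil1 were at 0, but at 7141 CPM in iIELs. The 7 T cell markers had 0 UMIs in stem cells, which allows up to 53.4 CPM, and 20.1 CPM in the epithelial cluster. T cell markers were at 8691 CPM in nIELs (led by Cd7), 5044 CPM in iIELs (led by Cd3g) and 2764 CPM in B cells (led by Ptprc, which B cells also express, with 65 UMIs of 212). All 7 T cell markers thus had UMIs in the B cell cluster as well. The 5 B cell markers, led by Cd74, were at 14522 CPM in B cells and at 217 CPM or less in every other group. Of the myeloid markers, Lyz2 gave 63 of 67 UMIs in B cells, and B cells were at 873 CPM for this list and iIELs at 81.0 CPM. The 4 of 5 stromal markers and the 1 of 4 erythroid markers in the matrix had at most 1 UMI in any group. The stem cell and precursor names are the authors' own, and no marker list here checks them.

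Ribosomal proteins join ribosomal RNA in the nucleolus to form the small subunit, which reads the mRNA, and the large subunit, which forms the peptide bonds. Their mRNAs are among the most abundant of a cell, and many begin with a C and a run of pyrimidines, the terminal oligopyrimidine (TOP) tract, through which mTORC1 signalling and the RNA-binding protein Larp1 control their translation. In the crypt, dividing cells need new ribosomes to grow.

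The annotated starts show how far the members share this tract. RefSeq promoters of GRCm38.p6, with 250 bases before and 50 bases after the start, were found for 57 of the 79 members, with 68 promoters. The tract, spelled as C at the start and 4 bases each C or T after it, began at the annotated base in 13 of 68 member promoters (19.1%), against 2.51% of all 32851 promoters. It began within 5 bases of the start in 44.1% of member promoters and in 18.3% of all promoters. CCGGAA on either strand was in 48.5% of member promoters and 14.9% of all, and ATGGCG in 29.4% and 8.93%. Members thus held these letters more often than promoters at large. A match describes letters and is not a shown site. The windows below are of the members described by name later that hold the tract, each with 10 bases before and 20 from the start, on the strand of the gene, with the run of pyrimidines from the start in capitals. They lie at chr9:120571507-120571536 (Rpl14), chr14:18270967-18270996 (Rpl15), chr7:4792955-4792984 (Rpl28), chr11:114668570-114668599 (Rpl38), chr7:141447641-141447670 (Rplp2), chr7:118116128-118116157 (Rps15a) and chr3:90213629-90213658 (Rps27), on the minus strand for Rpl15, Rps15a and Rps27.
Rpl14: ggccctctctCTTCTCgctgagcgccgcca
Rpl15: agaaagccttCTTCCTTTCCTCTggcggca
Rpl28: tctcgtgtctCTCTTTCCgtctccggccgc
Rpl38: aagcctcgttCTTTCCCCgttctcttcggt
Rplp2: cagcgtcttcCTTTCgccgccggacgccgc
Rps15a: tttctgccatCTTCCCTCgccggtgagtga
Rps27: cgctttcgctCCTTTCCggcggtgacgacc

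By contrast, 2 other windows hold no tract at the annotated base, though that of Rps27l holds one within 5 bases of the start. They are of Rpsa (chr9:120127756-120127785, plus strand), the member with the highest fold in stem cells against precursors, and of the first listed promoter of Rps27l (chr9:66946076-66946105, plus strand), the member with the highest fold in the epithelial cluster against the other clusters.
Rpsa: ttatttaaggacgtcatttccggccgcccg
Rps27l: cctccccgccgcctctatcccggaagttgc

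Over both barcode sets together, lymphocytes gave a larger share of their UMIs to ribosomal proteins than epithelial cells did. The share was 21.1% in nIELs (20.9% to 21.3%), 20.3% in B cells (19.97% to 20.5%) and 15.6% in iIELs (15.5% to 15.7%). It was 11.5% in the epithelial cluster (11.4% to 11.7%), and within the subclusters 12.7% in absorptive precursors (12.6% to 12.9%), 10.3% in stem cells (10.05% to 10.5%) and 10.2% in secretory precursors (10.04% to 10.4%). The intervals of stem cells and secretory precursors overlap in these pooled sums. Within X1, stem cells were at 9.45% (9.10% to 9.82%), secretory precursors at 9.46% (9.29% to 9.64%) and absorptive precursors at 12.8%. Sums within X2 rest in some groups on a single deep cell. There secretory precursors (4 cells) were at 13.7%, absorptive precursors (8 cells) at 12.3% and stem cells (15 cells) at 10.8%, but 1 secretory cell held 49.7% of the secretory UMIs, at a share of 18.8%. The other 3 secretory cells were at 8.78% (8.26% to 9.32%), lowest of the 3 subclusters, as secretory precursors also were in the medians over X2 cells (10.1%, against 10.4% in stem cells and 11.2% in absorptive precursors). Likewise iIELs within X2 (16 cells) were at 12.7%, level with the 12.75% of the 24 epithelial cells there, but 1 cell, also listed as a stem cell, held 57.9% of these iIEL UMIs, at a share of 9.76%. The other 15 iIELs were at 16.8% (16.3% to 17.4%), and the medians over X2 cells were 18.5% in iIELs and 10.6% in the epithelial cluster. Over single cells the medians were 21.4% in nIELs, 19.9% in B cells, 17.2% in iIELs, 10.1% in the epithelial cluster, 10.8% in absorptive precursors, 9.82% in stem cells and 8.88% in secretory precursors. Pooled over the sets, the order of the subclusters and of the clusters was the same by medians. Cells of each group overlapped widely, with a range of 2.99% to 24.5% in the epithelial cluster and of 4.28% to 30.8% in nIELs.

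**Figure D1:**
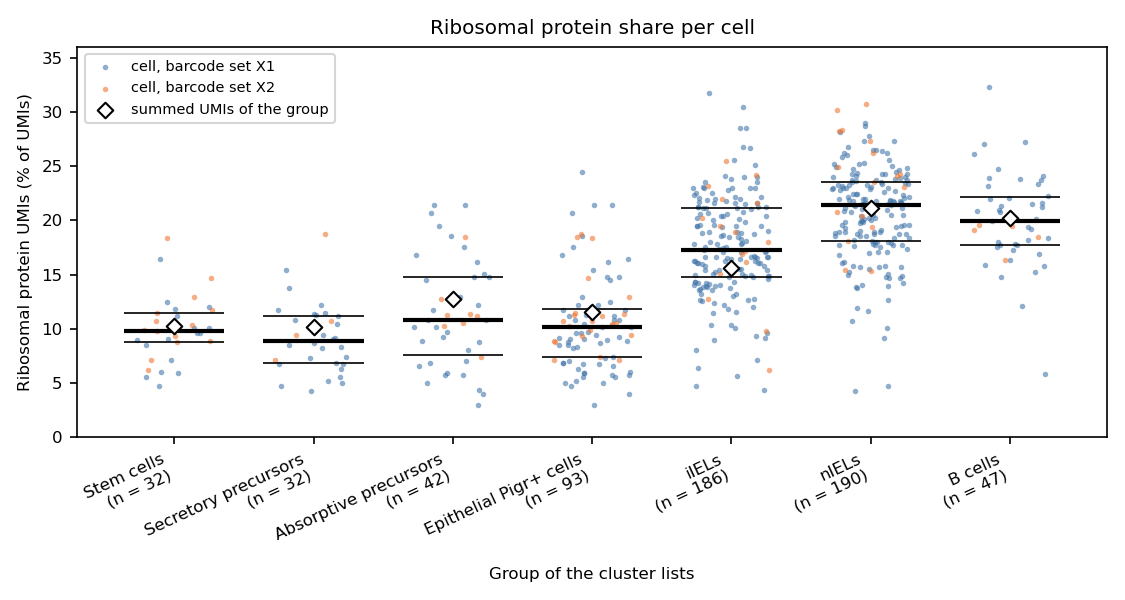
Percent of the UMIs of each cell that came from ribosomal protein genes, by group, with the median (thick line), quartiles (thin lines) and the share of the summed UMIs (diamond). The 190 nIELs and 47 B cells have medians of 21.4% and 19.9%, and the 32 stem cells a median of 9.82%.

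Between the clusters, mitochondrial genome genes ran the other way, but not among the subclusters. They took 5.96% of the UMIs of the epithelial cluster, and by subcluster 6.21% (absorptive), 4.91% (secretory) and 6.53% (stem cells), against 2.21% in nIELs, 2.29% in B cells and 3.77% in iIELs. Across cells, Spearman's rho between the ribosomal protein share and the mitochondrial share was -0.758 in the 42 absorptive precursors, -0.571 in the 32 secretory precursors, -0.316 in the 32 stem cells and -0.145 in the 190 nIELs. Both shares have the same total in each cell, and the part of mitochondrial mRNA in the difference between clusters was not tested. With totals that leave mitochondrial genes out, the fold of the epithelial cluster to the other cells was 0.647 in place of 0.627.

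Stem cells were compared with both precursor subclusters together. As a sum over both barcode sets, ribosomal protein genes were slightly lower in stem cells, at 10.3% of UMIs against 11.6% (11.5% to 11.7%), a fold of 0.888 (0.865 to 0.911). Singly, members spread widely around this value. The laminin receptor gene Rpsa, which encodes a protein of the small subunit, was higher, and Rps23, Rpl23a, Rps28 and Rpl15 were among the lowest. The fold was 0.837 within barcode set X1 (17 stem cells) and 0.830 within X2 (15 stem cells), and 0.941 without the cells in both lists. Within X2, 1 stem cell held 53.5% of the stem cell UMIs, and without the deepest cell of each subcluster there the fold was 1.06 (1.01 to 1.12), so the lower sum did not hold in the other X2 cells. Stem cells were also the shallowest of the 3 subclusters, with a median of 995.5 UMIs against 1820.5 (secretory) and 1939.5 (absorptive). Across cells, rho between the ribosomal protein share and depth was 0.187 in the 32 stem cells, 0.320 in the 32 secretory and 0.438 in the 42 absorptive precursors. The part of depth in the fold was not tested.

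Rpsa was the member that stood apart. Stem cells had 4997 CPM (4483 to 5553), absorptive precursors 2313 CPM (2077 to 2568) and secretory precursors 1881 CPM (1651 to 2133). Its level in lymphocytes was between these, at 2369 CPM in iIELs, 3007 CPM in nIELs and 2685 CPM in B cells. Stem cells were thus above all other groups for this gene. The fold to the precursors was 2.36 (2.06 to 2.70), and it was 3.06 within X1, 1.73 within X2 (1.37 to 2.20), 2.86 without the deepest cell of each group and 2.92 without the cells in both lists. The 26 stem cells outside the IEL lists had 6540 CPM (5779 to 7373), and the 6 also listed as IELs had 2764 CPM (2185 to 3450). Rpsa shares none of the 50-base stretches of its last 300 bases with another gene's transcripts.

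Rpsa was also the only member past 1.5-fold upward. Of 75 members with at least 50 UMIs in the 3 subclusters, 1 was at least 1.5-fold higher in stem cells, or 1.33%, where 16.9% of the 1171 genes with as many UMIs were. Members past this fold were thus rarer than genes at large. Under other choices the count was 3 within X1 (18.4% of all genes), 1 within X2 (10.4%), 2 without the deepest cells (20.3%) and 4 by the mean over cells (18.8%). Within X2 without its deepest cells it was 8 of 52 members (15.4%) against 20.8% of genes. Downward, 22 of the 75 were at least 1.5-fold lower, or 29.3%, near the 31.9% of all genes. Among the genes with at least 500 UMIs, a depth nearer to that of the members and chosen after seeing the data, 6.67% of 75 genes were past the fold upward against 1 of 34 members, and 26.7% were past it downward against 4 of 34 members, which are themselves among the 75. The median fold of the members was 0.826, against 0.903 for all genes. With at least 500 UMIs the order turned, at 0.988 for the members against 0.919.

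Among the next members by fold were Rps20, Rplp1 and Rps15. The small subunit gene Rps20 had 2086 CPM in stem cells against 1073 CPM (secretory) and 1779 CPM (absorptive), with a fold of 1.43 (1.18 to 1.74), and 1.22 within X1 and 1.17 within X2, both with intervals across 1, but 1.80 within X2 without its deepest cells (1.24 to 2.61). Rps15 had 2013 CPM against 1391 and 1891 CPM, and its fold of 1.21 had an interval that reached below 1 (0.995 to 1.47). These pooled differences were small beside that of Rpsa, and for Rps20 lay mostly against secretory precursors.

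The members at the low end were lower than in both precursors. Rps23, a protein of the decoding centre of the small subunit, had 463 CPM in stem cells (317 to 654) against 1119 CPM (secretory) and 1469 CPM (absorptive), a fold of 0.354 (0.239 to 0.509). Rpl23a, of the large subunit's exit tunnel, was at 565 CPM against 1073 and 1976 CPM, a fold of 0.362 (0.254 to 0.502). Both were lowest in stem cells. Rps28 was at 970, 1819 and 2879 CPM, lowest in stem cells as well, with a fold of 0.406 (0.311 to 0.522). Rpl15, whose start window holds a tract, had only 11 UMIs in stem cells, or 159 CPM, and a fold of 0.406 (0.197 to 0.756). Its fold was 0.103 within X1, from 1 UMI in stem cells, and 0.501 within X2 (0.212 to 1.10), across 1. Within X1 and X2 in turn, the folds were 0.302 and 0.362 for Rps23, 0.270 and 0.447 for Rpl23a and 0.269 and 0.556 for Rps28. Without the deepest X2 cells the folds within X2 were 0.177 (0.0455 to 0.495), 0.395 (0.175 to 0.808) and 0.708 (0.422 to 1.16), so Rps28 did not leave 1 there.

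**Figure D2:**
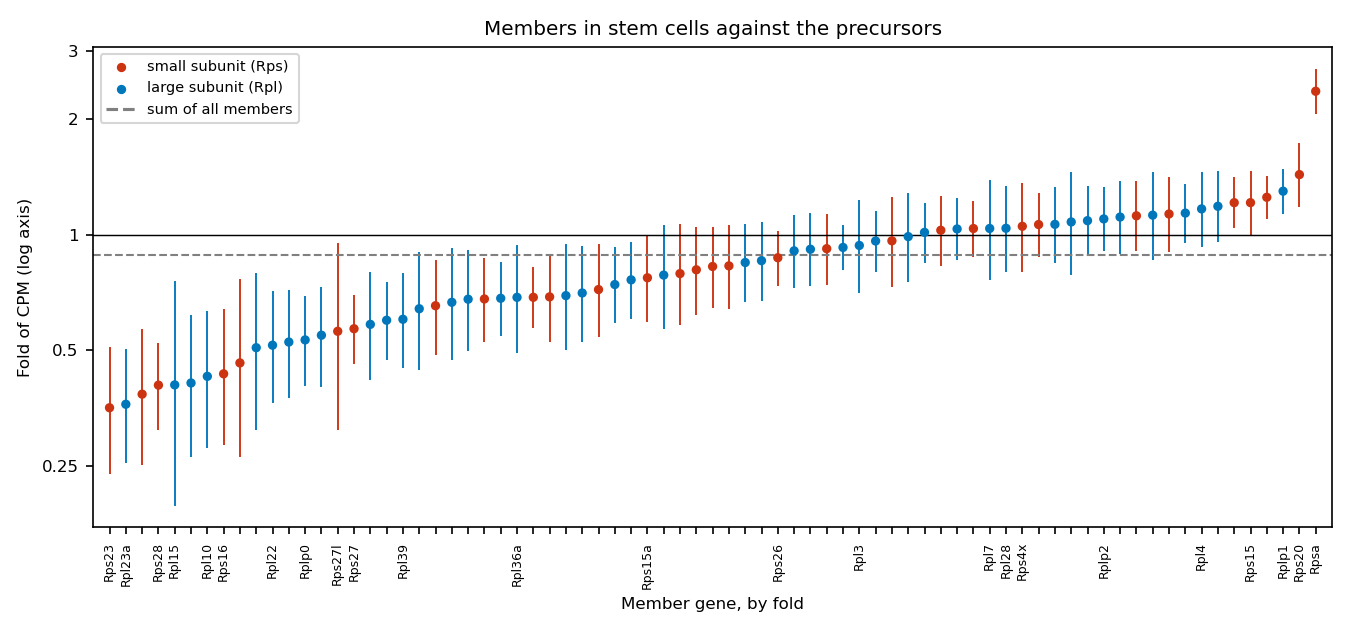
Fold of CPM, stem cells to both precursor subclusters, for the 75 members with at least 50 UMIs, with exact 95% intervals of counting error, on a log axis, with some of the members labelled. Rpsa lies at 2.36, Rps23 at 0.354, and the dashed line marks the sum of all members at 0.888.

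Counted within each barcode set, 45 of the 75 members were below 1 in both sets and 5 were above 1 in both, which were Rpsa, Rps20, Rplp1, Rps15 and Rpl4. With the deepest cell of each subcluster in X2 left out, 34 were below 1 in both and 16 above. As a share of the members' own UMIs, which takes out the level of the sum, 13 members were higher in stem cells with an interval above 1 and 22 were lower. Rpsa made up 4.86% of the members' UMIs in stem cells and 1.83% in the precursors, a fold of 2.66. The mRNAs of the members were thus not in a fixed proportion between these groups.

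**Figure D3:**
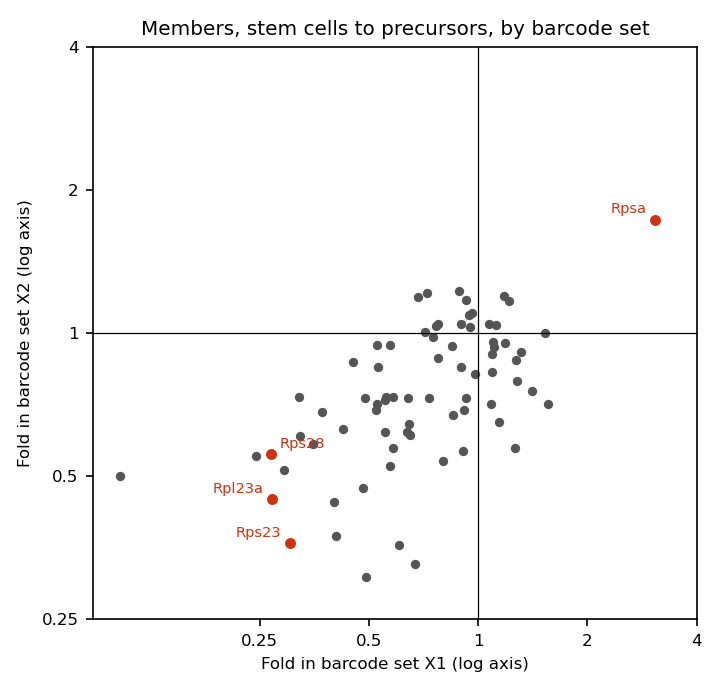
Fold of CPM, stem cells to precursors, of each of 75 members within barcode set X1 (horizontal) and X2 (vertical), both on log axes. Rpsa is at 3.06 and 1.73, and 45 members lie below 1 in both sets.

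The stalk genes did not move together. Rplp0, Rplp1 and Rplp2 encode the acidic stalk of the large subunit that recruits elongation factors. Rplp1 had 4244 CPM in stem cells against 3101 CPM (secretory) and 3413 CPM (absorptive), a fold of 1.30 (1.13 to 1.48). Rplp2 was at 1999, 1586 and 2016 CPM, a fold of 1.10 (0.904 to 1.33) that does not leave 1 at this depth. Rplp0, in contrast, was at 912, 1477 and 1917 CPM, a fold of 0.532 (0.402 to 0.693). Within X1 and X2 in turn the fold of Rplp1 was 1.07 and 1.05, both with intervals across 1, and that of Rplp0 was 0.323 and 0.606. Without the deepest X2 cells, however, that of Rplp1 within X2 was 1.58 (1.21 to 2.06) and that of Rplp0 0.500 (0.281 to 0.854).

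**Figure D4:**
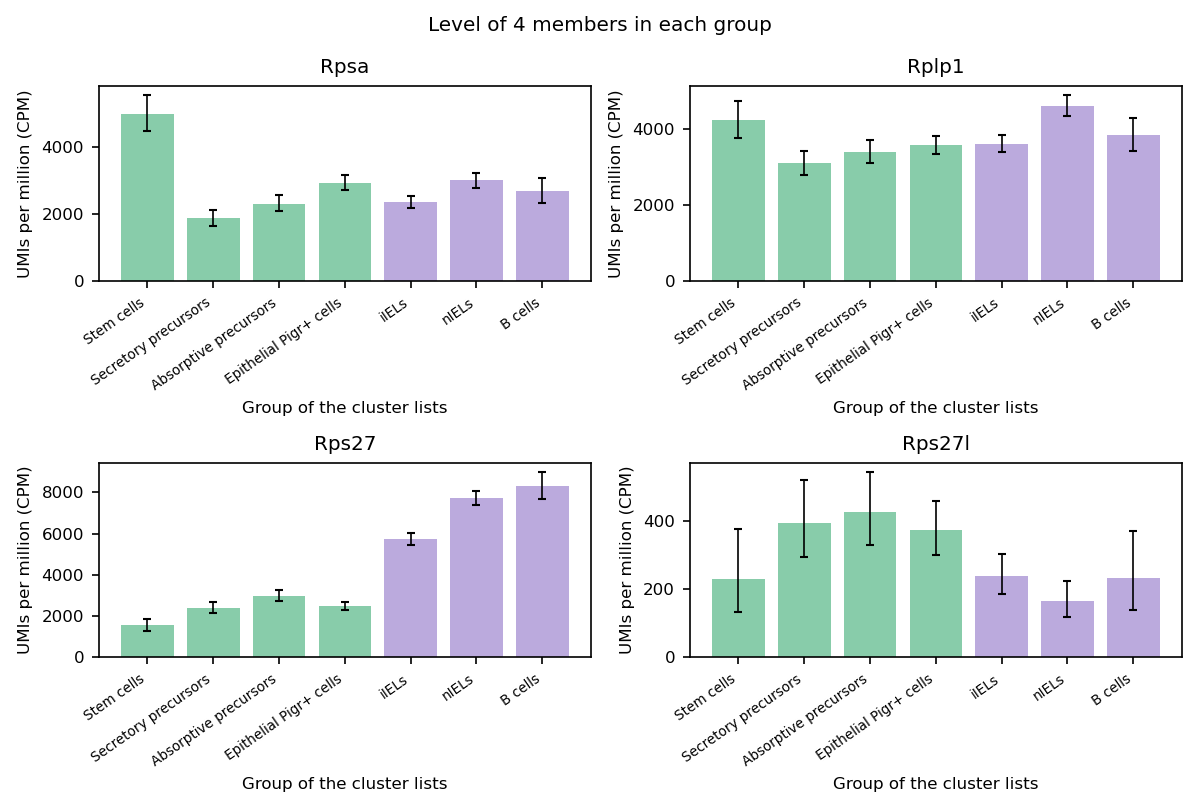
Level (CPM) of Rpsa, Rplp1, Rps27 and Rps27l in each group, with exact 95% Poisson intervals of counting error. Rpsa is highest in stem cells at 4997 CPM, Rps27 in B cells at 8330 CPM and Rps27l in absorptive precursors at 428 CPM.

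Each precursor was also set against the other 2 subclusters, in comparisons that share their cells with the one of stem cells. Absorptive precursors were higher as a sum, with a fold of 1.25 (1.22 to 1.27), and 68 of 75 members were above 1. The fold was 1.36 within X1 (1.32 to 1.39) and 1.04 within X2 (1.001 to 1.09), where there were 8 absorptive precursors, and 45 of the 75 were above 1 in both sets. Within X2 without its deepest cells it was 1.17 (1.11 to 1.24). Of the 75, 15 (20%) were at least 1.5-fold higher against 28.1% of all genes, and 0 were at least 1.5-fold lower against 18.4%. The highest was Rpl23a at 2.21 (1.83 to 2.67), followed by Rpl9 at 2.11, though within X2 they were at 1.33 (0.845 to 2.05) and 1.19 (0.753 to 1.85), and without its deepest cells at 2.51 (1.36 to 4.74) and 1.51 (0.807 to 2.81). The lowest was Rpsa at 0.779 (0.680 to 0.891), though within X2 it was at 0.981 (0.753 to 1.27), across 1. Members past 1.5-fold were thus rarer than genes at large, and the higher sum was smaller in X2. Secretory precursors had a fold of 0.853 (0.835 to 0.871), with 62 of 75 members below 1. The fold was 0.772 within X1 (0.753 to 0.791) and 1.21 within X2 (1.16 to 1.27), where the direction rests on the 1 deep cell named above among 4 secretory precursors. Without the deepest cell of each subcluster there it was 0.715 (0.667 to 0.766). Of the 75 members, 12 were below 1 in both sets and 9 above, and without those cells 56 were below and 5 above. In them 0 members were at least 1.5-fold higher against 15.1% of all genes, and 6 (8%) were at least 1.5-fold lower against 27.6%. Rps20 was lowest at 0.572 (0.468 to 0.695) and Rpl10 highest at 1.40 (1.10 to 1.77). Rps20 was at 0.539 within X1 and at 0.807 within X2, where its interval lay across 1. Rpl10 was at 1.22 within X1, with an interval across 1, and at 2.14 within X2, which holds the 1 deep secretory cell. With at least 500 UMIs, of 34 members 3 were higher and 0 lower in absorptive precursors, each against 16% of the 75 genes, and 0 were higher and 2 lower in secretory precursors, against 17.3% and 18.7%.

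Other lists of translation genes were also read in stem cells. The 31 genes of ribosome biogenesis, which make and process ribosomal RNA and assemble the subunits, summed to 7502 CPM in stem cells (6870 to 8177) against 3141 CPM in the precursors (2937 to 3356), a fold of 2.39 (2.14 to 2.66). Of the 31, 9 had at least 50 UMIs, of which 6 were at least 1.5-fold higher, or 66.7% against 16.9% of all genes. Of the 9, 1 was lower, where 31.9% of all genes were, and the median fold was 2.03 against 0.903 for all genes. The nucleolar protein gene Ncl had a fold of 3.92 (3.19 to 4.81), the snoRNP gene Nop56 of 5.11 (3.11 to 8.47) and the pseudouridine synthase gene Dkc1 of 3.21 (1.99 to 5.16), while Nop10 was at 0.332 (0.0869 to 0.904), Polr1d at 0.770 and Npm1 at 1.20. The authors named this subcluster partly for Nop56 and Nop58, which are in this list, so its level here is a description of how the group was named and not independent of it. The fold of the biogenesis sum was 3.09 within X1, 1.60 within X2 and 2.07 within X2 without its deepest cells.

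Among elongation factors, the sum had a fold of 1.06 (0.933 to 1.21), made of unlike genes. Eef2, which moves the ribosome along the mRNA, was at 1709 CPM in stem cells against 824 CPM, a fold of 2.07 (1.65 to 2.60), and Eef1g at 1.73 (1.21 to 2.44). Eef1a1, which brings tRNAs to the ribosome and has a TOP mRNA, was at 652 CPM against 1540 CPM, a fold of 0.423 (0.304 to 0.576), with Eef1b2 at 0.880, Eif5a at 0.921 and Eef1d at 1.35. Initiation factors summed to a fold of 1.23 (1.12 to 1.35). Of 16, 3 were at least 1.5-fold higher, or 18.8% against 16.9% of all genes, and 1 was lower, against 31.9%. Their highest were Eif3a at 2.46 (1.91 to 3.15), Eif3j1 at 1.66 and Eif5b at 1.52, and their lowest Eif1 at 0.425 (0.254 to 0.675), Eif3k at 0.691 and Eif2s2 at 0.725. Of the other TOP mRNAs, Gas5 was at 2.11 (1.497 to 2.93), Npm1 at 1.20, Pabpc1 at 1.07 and Tpt1 at 0.680 (0.518 to 0.881), and their sum at 1.08 (0.979 to 1.20). TOP mRNAs thus did not share a direction. Of 12 genes of mTORC1 and TOP control, 1 reached 50 UMIs, Larp1, with a fold of 2.42 (1.41 to 4.06).

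Ribosomal proteins outside the naming rule spread as well. Rack1 had a fold of 1.33 in stem cells (1.05 to 1.67) and Fau of 0.834 (0.643 to 1.07). Mitochondrial ribosomal proteins summed to a fold of 0.933 (0.831 to 1.04), which does not leave 1, and mitochondrial genome genes to 1.16 (1.13 to 1.20).

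Against the 3 lymphocyte clusters together, the epithelial cluster was lower in nearly all members. The sum was 11.5% against 18.4% (18.3% to 18.5%), a fold of 0.627 (0.619 to 0.635), and 71 of 77 members with at least 50 UMIs were below 1. Rpl13a, Rps15a, Rps23, Rps16 and Rps27 were lowest, and Rps27l, Rpl28, Rps26 and Rpsa were among the highest. The fold was 0.598 within X1 and 0.762 within X2, 0.570 within X2 without its deepest cells and 0.579 without the cells in both lists.

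Of the 77 members, 51 (66.2%) were at least 1.5-fold lower in the epithelial cluster, against 35.7% of 2853 genes. With at least 500 UMIs it was 48 of 73 members (65.8%), against 52.1% of 236 genes that include these members. At 1.5-fold the members were thus past the fold more often than genes at large, by less among abundant genes. Within X2 it was 24 of 73 members (32.9%) against 22.8% of genes, and without its deepest cells 52 of 72 (72.2%) against 41.6%. At 2-fold this turned, with 17 of 77 members (22.1%) against 24.2% of genes, so the members had many moderate differences and no excess of large ones. Upward, 1 member (1.30%) was past 1.5-fold against 26.4% of all genes, and with at least 500 UMIs 0 of 73 against 20.3%. The median fold of the members was 0.596, against 0.887 for all genes. With at least 500 UMIs the medians lay closer, at 0.599 for the members against 0.646.

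Rps27, the member with the most UMIs in the matrix, was at 2501 CPM in the epithelial cluster (2308 to 2706), 5726 CPM in iIELs (5451 to 6012), 7736 CPM in nIELs (7390 to 8094) and 8330 CPM in B cells (7696 to 9001). Its fold was 0.364 (0.334 to 0.396), and in stem cells it was at 1550 CPM, a fold of 0.569 to the precursors. All of the stretches in its last 300 bases also occur in transcripts of other genes, among them Rps27rt, which the naming rule leaves out and which was at 459 CPM in the epithelial cluster against 1344 CPM in the other cells, a fold of 0.342 (0.278 to 0.416). How reads of such copies were assigned was not tested. The counts assigned to Rps27 and to its copy were both lower in epithelium, but with shared stretches they may not be separate measurements.

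Rps27l, a near copy of Rps27 known as a p53 target, was higher in the epithelial cluster, opposite to Rps27. It was at 375 CPM in the epithelial cluster (302 to 459), 239 CPM in iIELs, 165 CPM in nIELs (118 to 224) and 235 CPM in B cells (139 to 371). The fold of 1.79 (1.36 to 2.36) was the only one past 1.5 upward, and was 1.77 within X1 and 2.04 within X2, where its interval reached below 1 (0.972 to 4.49), and without the deepest X2 cells 4.004 (1.146 to 21.4) from 16 and 3 UMIs. Within the epithelium it had 232 CPM in stem cells (132 to 376) against 396 CPM (295 to 521, secretory) and 428 CPM (331 to 546, absorptive), a fold of 0.560 (0.310 to 0.949). The fold was 0.572 within X1 (0.205 to 1.29) and 0.524 within X2 (0.221 to 1.16), and the intervals of the 3 levels overlap, so the lower level in stem cells is near the limit of counting error.

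Other members that did not follow the sum belonged to both subunits. Rpl28, of the large subunit, was at 1168 CPM in the epithelial cluster against 880 CPM, a fold of 1.33 (1.15 to 1.53), and Rps26 at 3029 against 2495 CPM, a fold of 1.21 (1.11 to 1.33). Rpsa had 2940 CPM against 2666 CPM, a fold of 1.10 (1.01 to 1.20). Its fold was 1.02 within X1 (0.923 to 1.13), across 1, and 1.25 within X2 (1.03 to 1.53). Rplp1 had 3580 against 4052 CPM, a fold of 0.884. Rplp0 had a fold of 0.809 and Rplp2 of 0.553 (0.500 to 0.610). At the low end, Rps15a was at 1373 against 4256 CPM, a fold of 0.323 (0.287 to 0.361), Rps23 at 1091 against 3380 CPM, a fold of 0.323 (0.283 to 0.367), and Rps16 at 842 against 2450 CPM, a fold of 0.344 (0.296 to 0.397). Rpl13a, with 17 UMIs in the epithelial cluster, had 68.5 against 225 CPM, a fold of 0.304 (0.172 to 0.505). Rps23 was thus low both in epithelium against lymphocytes and in stem cells against precursors.

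**Figure D5:**
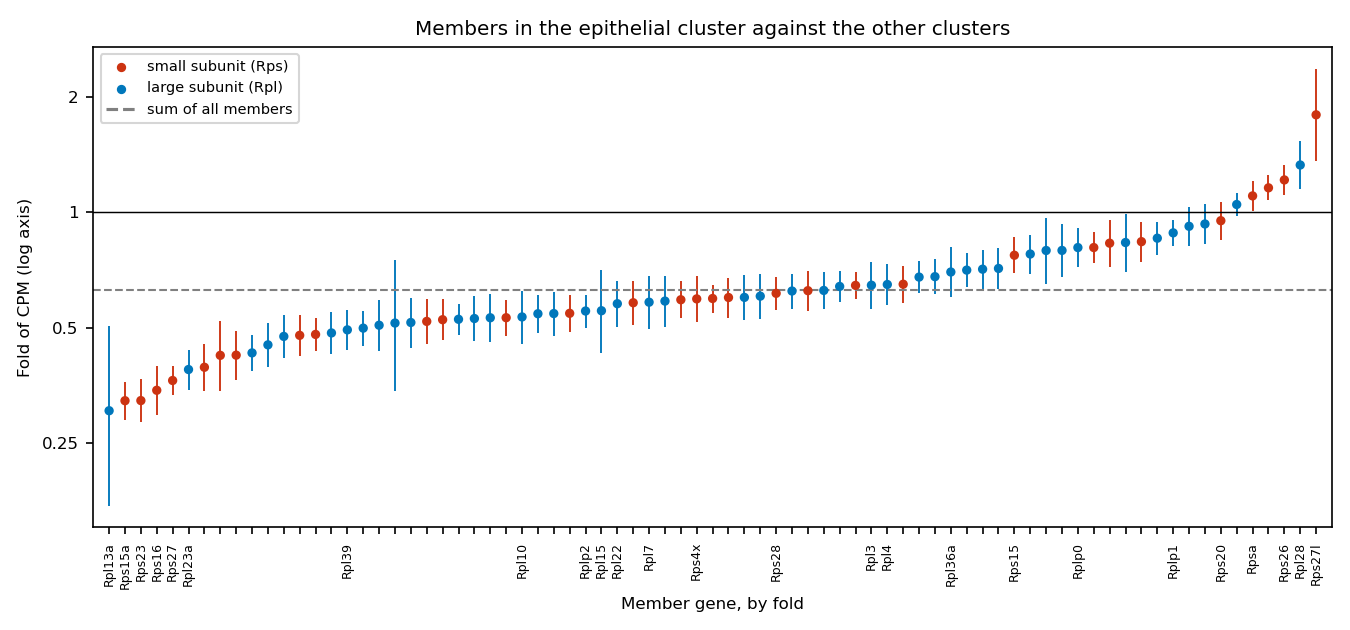
Fold of CPM, epithelial cluster to the other 3 clusters, for the 77 members with at least 50 UMIs, with exact 95% intervals of counting error, on a log axis, with some of the members labelled. The dashed line marks the sum at 0.627, Rps27l lies at 1.79 and Rpl13a at 0.304.

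The subunits were also summed, which averages over their members. The small subunit gave 45.1% of the members' UMIs in the epithelial cluster and 46.3% in the other cells, a fold of 0.975 (0.956 to 0.994), and 0.994 within X2. In stem cells it gave 46.6% against 44.5% in the precursors, a fold of 1.05 (1.01 to 1.09), and 1.01 without Rpsa (0.971 to 1.05), which does not leave 1. The median folds of the small and large subunit members in stem cells were 0.826 and 0.815. In B cells it gave 46.9% against 46.2% in IELs, a fold of 1.01 (0.990 to 1.04).

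Related lists in the epithelial cluster split by kind. The sums of elongation factors, at a fold of 0.785 (0.732 to 0.842), and of other TOP mRNAs, at 0.736 (0.697 to 0.777), were lower, while those of initiation factors and ribosome biogenesis were not. Outside the naming rule, Fau was at 0.481 and Rack1 at 0.837. Of the 6 elongation factors, 1 was at least 1.5-fold lower, against 35.7% of all genes, which was Eef1a1 at 0.547 (0.485 to 0.616). The others were Eif5a at 0.747, Eef1g at 0.778, Eef1b2 at 0.972, Eef1d at 1.09 and Eef2 at 1.23 (1.06 to 1.43). Among TOP mRNAs, 4 of 6 were at least 1.5-fold lower, or 66.7% against 35.7% of all genes, Nap1l1 at 0.451, Npm1 at 0.541, Hnrnpa1 at 0.608 and Tpt1 at 0.610, with Pabpc1 at 0.814 and Gas5 at 0.851. All 6 of these TOP mRNAs were below 1, Hnrnpa1 and Gas5 with intervals across it. Initiation factors were at 1.13 (1.07 to 1.19), from Eif3m at 0.304, Eif4a2 at 0.434 and Eif3k at 0.471 to Eif1ax at 2.27, Eif5b at 2.32 (2.01 to 2.69) and Eif3b at 2.52, with 10 of 26 at least 1.5-fold higher (38.5% against 26.4% of all genes) and 8 lower (30.8% against 35.7%). Ribosome biogenesis was at 1.03 (0.960 to 1.11), from Npm1, Nop10 at 0.545 and Ubtf at 0.666 to Nhp2 at 1.68, Nolc1 at 1.69 and Ddx21 at 1.69. Of the mTORC1 list, Larp1 was at 2.65 (1.73 to 4.06), Rps6kb1 at 0.663 and Rheb at 0.608. Mitochondrial ribosomal proteins summed to 1.20 (1.12 to 1.28), with a median fold of 1.08 and 11 of 38 at least 1.5-fold higher, or 28.9%, near the 26.4% of all genes. Mitochondrial genome genes were at 2.01 (1.97 to 2.06).

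Copies of ribosomal protein genes ranged from absent to well counted. Rpl3l, Rpl10l and Rpl39l have no symbol in the matrix. Rps4l had 7 UMIs and Rpl6l 51 in all barcodes, and neither reached 50 UMIs in any comparison. Parent genes of copies were lower in the epithelial cluster, with folds of 0.645 for Rpl3, 0.533 for Rpl10, 0.494 for Rpl39, 0.595 for Rps4x, 0.583 for Rpl7, 0.578 for Rpl22 and 0.699 for Rpl36a. Outside the naming rule, Rpl36al was at 677 CPM against 555 CPM there, a fold of 1.22 (1.01 to 1.47), Rpl22l1 at 431 against 663 CPM, a fold of 0.650 (0.520 to 0.807), and Rpl7l1 at a fold of 1.01. The 9 symbols of other ribosomal protein genes and copies outside the rule, Rps3a1 among them, summed to a fold of 0.593 (0.554 to 0.634). Of 8 with at least 50 UMIs, 6 (75%) were at least 1.5-fold lower, against 35.7% of all genes, and 0 higher, against 26.4%. Most of this list was thus lower with the members. The 3 copies Rpl36al, Rpl22l1 and Rpl7l1 alone summed to 0.915 (0.797 to 1.05), and Rps27l and Rpl36al were higher.

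B cells were set against both IEL clusters together. As a sum they were slightly higher, at 20.3% against 18.1% (18.03% to 18.2%), a fold of 1.12 (1.10 to 1.136), and 63 of 77 members were above 1. Without the cells in both lists, which count here as IELs, the fold was 1.02 (1.002 to 1.04), so the difference was near the limit of counting error. Within X2 without the deepest cell of each cluster, which leaves 4 B cells, it was 0.875 (0.805 to 0.9503), on the other side of 1. Rpl31 and Rpl24 were the members past 1.5-fold upward, 2 of 77 (2.60%) against 11.2% of 2003 genes, and 0 were past it downward against 28.3%. With at least 500 UMIs, 1 of 72 members was past it upward against 4.62% of 173 genes and 0 downward against 13.3%. Members past the fold were thus rarer than genes at large. This did not hold within X2, which held 5 B cells, where 12 of 71 members (16.9%) were past it upward against 16.4% of genes, or, without its deepest cells, 6 of 65 (9.23%) against 9.09%. The upward count was 1 within X1 (11.5% of genes), 1 without the deepest cells (11.8%) and 0 at 2-fold (4.44%). The median fold of the members was 1.13, against 0.902 for all genes.

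Rpl31, of the large subunit near the tunnel exit, was at 2777 CPM in B cells (2416 to 3176), 1804 CPM in nIELs and 1302 CPM in iIELs, a fold of 1.81 (1.55 to 2.11), and 1.71 within X1 and 2.96 within X2. Rpl24 had 28 UMIs in B cells, or 365 CPM against 243 CPM, and its fold of 1.5 had an interval from 0.961 to 2.28. Rps19, whose loss in people impairs red cell formation, was at 3481 against 2414 CPM, a fold of 1.44 (1.26 to 1.65). Only Rpl31 and Rps19 of these lay clear of 1. Rps20 had a fold of 1.42 (1.20 to 1.66), but 0.984 within X2, and Rpl26 of 1.40 (1.22 to 1.60), but 0.923 within X2. Lowest were Rpl38 at 0.849 (0.737 to 0.975), Rpl14 at 0.859 (0.735 to 0.998), Rpl11 at 0.902, Rps15a at 0.912 and Rpl19 at 0.913, the last 3 with intervals across 1. Rpl38, Rpl14 and Rps15a hold the tract in their start windows, as does Rps27, which was higher in B cells at 1.25 (1.15 to 1.36). Rpsa was level at 1.01 (0.867 to 1.17), with Rplp0 at 1.15, Rplp1 at 0.942, Rplp2 at 1.12 and Rps27l at 1.145, all 5 with intervals across 1.

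Related lists in B cells differed in both directions. Elongation factors were at 0.922 (0.827 to 1.03), with Eef1g highest at 1.49 (1.12 to 1.97) and Eef2 lowest at 0.755, and with Eef1d at 0.780, Eef1a1 at 0.862, Eif5a at 0.890 and Eef1b2 at 0.970 between them. Other TOP mRNAs were at 0.839 (0.771 to 0.913), from Pabpc1 at 0.718 (0.637 to 0.806), Gas5 at 0.883, Tpt1 at 0.935 and Npm1 at 1.04 to Nap1l1 at 1.67 (1.141 to 2.40) and Hnrnpa1 at 1.87. Fau was at 1.26 (1.09 to 1.44) and Rack1 at 1.10. Initiation factors were at 0.899 (0.816 to 0.989), with 6 of 21 at least 1.5-fold lower, or 28.6%, near the 28.3% of all genes, from Eif4b at 0.308 (0.0619 to 0.938) to Eif4a2 at 1.36 (0.859 to 2.09). Ribosome biogenesis was at 1.09 (0.970 to 1.23), with Dkc1 highest at 1.62 and Polr1d lowest at 0.660, and mitochondrial ribosomal proteins at 0.924 (0.821 to 1.04). Mitochondrial genome genes were at 0.749 (0.713 to 0.787), with 6 of 12 at least 1.5-fold lower, against 28.3% of all genes. The sums of the translation lists thus had no common direction between B cells and IELs.

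Between the IEL clusters, nIELs were higher than iIELs in 76 of 77 members, and the exception was Rps27l at 0.688 (0.454 to 1.03). The sum was 21.1% against 15.6%, a fold of 1.35 (1.34 to 1.37). Within X1 it was 1.30 and within X2 1.91, where the 1 iIEL also listed as a stem cell held 57.9% of the iIEL UMIs, and within X2 without its deepest cells it was 1.40 (1.33 to 1.47). Without the cells in both lists it was 1.17 (1.16 to 1.19). Of the 77, 12 (15.6%) were at least 1.5-fold higher, the same as the 15.6% of 1770 genes, and 0 were lower against 16.8%. With at least 500 UMIs it was 10 of 70 against 15% of 153 genes, and 0 lower against 9.8%. The difference was thus spread over the members and not large for many of them. Rpl10 was highest at 1.69 (1.45 to 1.96), with 1816 CPM in nIELs and 1077 CPM in iIELs. The counts of members and the folds of single members given here include the cells in both lists. Mitochondrial genome genes were at 0.587 (0.568 to 0.606), elongation factors at 1.19 (1.10 to 1.28) and other TOP mRNAs at 1.18 (1.11 to 1.24). Epithelial markers, at 330 CPM in nIELs and 7141 CPM in iIELs, were higher in iIELs, and beyond the fold without the cells in both lists their part in the difference was not tested.

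Sequence shared between genes bears on how members can be counted from a 3′ end. Of 77 members with a GENCODE M21 transcript, 57 had at least 1 stretch of 50 bases in their last 300 bases that also occurs in another gene's transcript, 42 had more than 50% of their stretches shared, and 20 had none, with a median of 55.8%. Among the members described by name, none was shared for Rpsa, Rplp0, Rps20, Rps19, Rpl4, Rpl11, Rpl14, Rpl28, Rpl31 and Rpl13a. All was shared for Rpl10, Rpl9, Rpl36a and Rps27. Others lay between, such as 81.3% for Rpl24, 80.9% for Rpl23a, 79.7% for Rpl15 and 77.3% for Rps15a. The share was 66.9% for Rplp1, 62.6% for Rps26, 12.4% for Rps23 and 21.9% for Rps27l. This measure was added after the data had been seen, and its part in the folds was not tested.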

How the data were processed

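Drop-seq libraries of 2 pools of sorted mouse colon crypt cells were used. Whole UMI counts per gene symbol and barcode were deposited by the authors without normalization. Reads had been aligned with STAR 2.5.0 to mm10 and hg19, with Picard 1.137 among the tools listed. Cells were joined to the authors' cluster lists by barcode, and the summary columns beside those lists were not used.

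Counts were summed over the cells of a group. Levels are UMIs per 1000000 (CPM) with exact Poisson intervals, shares have exact Clopper-Pearson intervals, and folds are ratios of shares with exact binomial intervals (all 95%), which treat UMIs as independent and cover counting error only. No test was run. Calls past 1.5-fold were counted over genes whose UMIs in the compared cells reached 50. The computation was checked on simulated data. Members and lists were chosen with earlier results of these data known. Lists were markers of epithelial, T, B, myeloid, stromal and erythroid cells, ribosome biogenesis, elongation and initiation factors, other TOP mRNAs, mTORC1 and TOP regulators, copies and their parents, ribosomal proteins outside the rule, and mitochondrial genes.

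Named members are, for stem cells, B cells and the epithelial cluster, the 5 highest and 5 lowest by fold and by share of the members' UMIs, always Rpsa, Rplp0, Rplp1, Rplp2, Rps27, Rps27l and copies with their parents, and for related lists all of 6 or fewer genes or the 3 highest and 3 lowest. The folds within other comparisons, Rpl4, Rpl9, Rps27rt and the genes named for a count were chosen after their values were seen. Some genes that the rule names are not reported here.

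Alternatives were the mean over cells, totals without mitochondrial genes, each barcode set, X2 without its deepest cells, no cells in both lists, other member sets, no deepest cells, joined barcodes, another minimum of UMIs, 2-fold, and a re-clustering without members (log-normalised to 10000, genes in at least 3 cells, 1000 variable genes, 5 principal components, k-means with 50 starts). Python 3.11.15, numpy 2.4.6, scipy 1.17.1, pandas 2.3.3, scikit-learn 1.9.0 and matplotlib 3.10.9 were used. No doublet caller was run. The sorts, stainings, wounding experiments and human cells were not used here.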

Additional observations from a re-analysis of the deposited data

Results flagged for a closer look

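Barcodes in neither list and symbols outside the naming rule also held ribosomal protein UMIs. The 601 barcodes that neither cluster list names had 13843 member UMIs, or 8.06% of 171737 UMIs (7.93% to 8.19%). Within X1 (588 barcodes) they were at 7.74%, and within X2 (13 barcodes) at 18.5% (17.5% to 19.6%). They were shallow, with a median of 212 UMIs, and 36.8% of what they held came from mitochondrial genes. Of them, 104 had a ribosomal protein share at or above 18.4%, the median of the listed cells, and the highest was 35.6%. The 217 pseudogene symbols with -ps held 25086 UMIs, as much as 16.3% of the members' UMIs, and the largest was Rps13-ps2 with 1076 UMIs. The 9 symbols of other ribosomal protein genes and copies outside the naming rule, such as Rps3a1 and Rps27rt, held 5918 UMIs. What these UMIs derive from was not tested.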

How the results depend on the processing

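Of 114 alternatives to 14 results, 57 moved beyond the counting interval or, for a count, beyond 1.5 times, 3 turned and 54 did neither, among them 3 with joined barcodes, which cannot move a summed fold. The 3 folds that crossed 1 did so in X2. That of secretory precursors to the other subclusters (0.853) was 1.21 in X2, which rests on 1 of 4 secretory cells, but 0.715 in X2 without the deepest cell of each group there, and was 0.772 in X1, 0.781 without the deepest cells and 0.793 without the cells in both lists. That of absorptive precursors (1.25) was 1.36 in X1, 1.04 in X2, 1.17 in X2 without its deepest cells, 1.20 by the mean over cells, 1.34 without the deepest cells and 1.30 without the cells in both lists. A count has no direction to turn. The fold of stem cells to precursors (0.888) was 0.954 by the mean over cells, 0.837 in X1, 0.830 in X2, 1.06 in X2 without its deepest cells (14 stem cells), 0.941 without the cells in both lists and 0.779 with clusters made again without the members (50 cells). That of B cells to IELs (1.12) was 1.05 by the mean, 1.09 in X2 (5 B cells), 0.875 in X2 without its deepest cells (4 B cells) and 1.02 without the cells in both lists. That of the epithelial cluster (0.627) was 0.549 by the mean, 0.647 without mitochondrial genes, 0.598 in X1, 0.762 in X2, 0.570 in X2 without its deepest cells, 0.579 without the cells in both lists, 0.637 without Rps27, 0.617 without the deepest cells and 0.563 with clusters made again (112 cells). That of nIELs to iIELs (1.35) was 1.30 in X1, 1.91 in X2, 1.40 in X2 without its deepest cells, 1.18 by the mean, 1.30 without the deepest cells and 1.17 without the cells in both lists. The count of members past the fold in stem cells (1) was 3 in X1, 8 in X2 without its deepest cells, 2 without the deepest cells and 4 by the mean. In B cells (2) it was 0 at 2-fold, 1 in X1, 12 in X2, 6 in X2 without its deepest cells, 1 without the deepest cells and 1 with at least 500 UMIs. In the epithelial cluster (51 lower) it was 17 at 2-fold, where members (22.1%) were past it less often than all genes (24.2%), and 24 in X2. The cause was not tested. The means over cells joined by barcodes 1 base apart were 0.922, 1.05 and 0.560 for stem cells, B cells and the epithelial cluster. The re-clustering gave no value for B cells, since no new group held them as its largest part. Its groups also differed from the authors' groups. The 50 cells taken as stem cells were 27 of the authors' stem cells, 13 secretory and 10 absorptive precursors. The 112 cells taken as epithelial held 56 and 36 of the authors' epithelial cells in separate new groups, and the rest were lymphocytes. The alternatives for each precursor, Rpsa, Rps27l, ribosome biogenesis, the subunits and nIELs to iIELs, the 500 UMI minimum, X2 without its deepest cells and the other ribosomal protein genes and copies outside the rule were chosen after seeing the data. No paired analysis was possible because no barcode is tied to a pool. With 1 sample, the spread between animals is unknown, 1 cell held 33.6% of the stem cell UMIs, and members under 50 UMIs were too sparse to compare.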
